A study of Mus musculus with 6 samples.

Results

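The genes of the oxidative phosphorylation system were examined in mouse liver after esculetin. They were taken by symbol from the protein-coding genes of the GENCODE annotation of GRCm39: those starting with mt-, Nduf, Uqcr or Atp5, the genes Sdha to Sdhd, and the families Cox4 to Cox8. The rule found 111 of the 55357 genes in the count table, 13 encoded by mitochondrial DNA and 98 by nuclear chromosomes. Of these, 102 are subunit genes or their annotated copies, with 45 in complex I, 4 in complex II, 9 in complex III, 24 in complex IV and 20 in complex V. The prefixes also took 8 Ndufaf assembly factors of complex I and Atp5if1, which codes for an inhibitor of the ATP synthase.

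Livers came from wild-type male C57BL6/J mice aged 8 to 9 weeks, gavaged daily for 7 days with 2.5% Tween-80 (vehicle) or with esculetin, a dihydroxycoumarin, in the same vehicle. All mice ate a control diet with 10% of kcal from fat for 4 days and a high-fat diet (HFD) with 60% for the next 3 days, so no group without HFD was compared. There were 3 libraries per group, and figure legends in the study's supplement give 2 mice per sample. The esculetin libraries carry 180 mg/kg/d in their names and 90 mg/kg/d in their treatment field, and no dose is assigned to them here.

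Oxidative phosphorylation takes place in the inner mitochondrial membrane. Complexes I and II pass electrons from NADH and succinate to coenzyme Q, complex III passes them to cytochrome c, complex IV reduces oxygen, and complex V makes ATP from the proton gradient. Complex II is wholly nuclear encoded, and the other complexes join subunits from both genomes. Liver depends on the system for gluconeogenesis, urea synthesis and fatty acid oxidation.

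The libraries held 27957713 to 34920922 counts. Levels are given as CPM, the reads of a gene relative to its library total after TMM scaling, with scaling factors between 0.979 and 1.02. The labelled tissue was checked with 7 hepatocyte markers, among them Alb and Apoa1, which summed to 85591 to 88551 CPM in vehicle and 82262 to 89883 CPM in esculetin libraries. The neutrophil marker Ly6g, the adipocyte marker Lep and 4 of 5 pancreatic acinar markers were at 0 in all libraries. The 4 adipocyte markers summed to at most 0.613 CPM in vehicle and to 0.894 to 1.19 CPM in esculetin libraries, and the 6 Kupffer cell and macrophage markers to 295 to 395 and 303 to 313 CPM. The fifth acinar marker, Cela1, measured 17.9 to 25.1 and 15.8 to 25.7 CPM. In the same order of groups, the 5 neutrophil markers summed to 3.03 to 4.38 and 2.80 to 5.88 CPM, the 6 lymphocyte markers to 2.37 to 2.98 and 1.99 to 5.44 CPM, the 6 stellate cell markers to 239 to 264 and 199 to 289 CPM, and the 5 erythroid markers to 127 to 155 and 114 to 178 CPM. The 6 cholangiocyte markers summed to 39.7 to 80.8 and 30.7 to 45.9 CPM, and the 6 endothelial markers to 162 to 201 and 172 to 199 CPM. In edgeR 1 marker each of the stellate cell, lymphocyte, neutrophil, erythroid and adipocyte lists passed an unadjusted p of 0.05 and a fold change of 1.5 upwards, namely Des, Cd79a, S100a9, Hba-a2 and Cfd (log2 fold changes from 0.69 to 1.72). Fold changes above 0 were found in 3 of 6 stellate cell, 3 of 5 tested lymphocyte, 2 of 3 tested neutrophil, 4 of 5 erythroid and 0 of 6 Kupffer cell and macrophage markers, the last with a median log2 fold change of -0.11. The esculetin libraries lay wholly below the vehicle libraries for Csf1r and Timd4 of the Kupffer cell and macrophage list. They also did so for Csf3r of the neutrophil list, Alas2 of the erythroid list and 1 tested lymphocyte marker. Of all genes tested, 8.24% lay wholly below. Only Alas2 of these markers passed an unadjusted p of 0.05 (-0.24). Malat1, a nuclear-retained RNA, ranged from 317 to 439 CPM in vehicle and from 273 to 338 CPM in esculetin libraries (log2 fold change -0.38, SE 0.13, adjusted p = 0.28 by edgeR's quasi-likelihood test). Its unadjusted p in that test was under 0.05. The part of these shifts in the results was not tested. In whole liver, fewer cells of a type and less RNA per cell cannot be told apart.

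Parts of mitochondrial DNA also lie in the nuclear genome, where reads of the members they hold could be placed. The longest near-identical copy in GRCm39 is on chromosome 1 (chr1:24650616-24655265, minus strand) and matches chrM:6394-11042 at 4648 of 4650 aligned positions. It contains mt-Co2, mt-Atp8, mt-Atp6, mt-Co3, mt-Nd3 and mt-Nd4l whole, 31.0% of mt-Co1 and 63.6% of mt-Nd4. The first 150 bases of mt-Atp8 (chrM:7766-7915, plus strand, GRCm39), the length of 1 read, show that such a read carries nothing that could tell the genomes apart, whereas windows of mt-Nd5 (chrM:12642-12791) and mt-Nd2 (chrM:4514-4663) do. Capitals mark the bases that differ from the aligned nuclear copy, on chromosome 1 for mt-Atp8, chromosome 4 for mt-Nd5 and chromosome 2 for mt-Nd2.
mt-Atp8: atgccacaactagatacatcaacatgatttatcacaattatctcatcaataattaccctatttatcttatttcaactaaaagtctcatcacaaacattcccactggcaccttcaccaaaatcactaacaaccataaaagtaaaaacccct
mt-Nd5: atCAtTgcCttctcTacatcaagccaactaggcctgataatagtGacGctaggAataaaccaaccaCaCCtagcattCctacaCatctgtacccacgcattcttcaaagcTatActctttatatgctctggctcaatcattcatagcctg
mt-Nd2: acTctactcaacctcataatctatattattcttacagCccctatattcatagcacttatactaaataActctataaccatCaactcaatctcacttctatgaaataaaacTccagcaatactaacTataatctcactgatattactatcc
The mt-Atp8 window differed at 0 bases, the mt-Nd2 window at 6 and the mt-Nd5 window at 15.

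The 6 genes inside the chromosome 1 copy had far fewer counts than the other 7 mitochondrial genes. Their mean count per library and kilobase ranged from 1194 for mt-Atp8 to 12146 for mt-Co3, against 82655 for mt-Nd5 to 549534 for mt-Co1 among the others. The highest value inside the copy was thus 6.81 times below the lowest of the other 7. All 150-base windows of mt-Co2, mt-Atp8, mt-Atp6, mt-Co3 and mt-Nd4l, and 98.5% of those of mt-Nd3, have an exact nuclear match. Among the other 7 genes, mt-Nd4 has one in 59.2% and mt-Co1 in 23.6% of windows, so their counts may be affected in part. The treatment of reads with several matches is not given in the sources used here, and its part in these counts was not tested. Pseudogenes annotated on the chromosome 1 copy took 0.148% to 0.171% of all counts. Levels and changes of the 6 genes are therefore uncertain, and mt-Atp8 with mt-Atp6, mt-Nd4l with mt-Nd4, and mt-Nd5 with the opposite-strand mt-Nd6 also overlap each other.

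**Figure D1:**
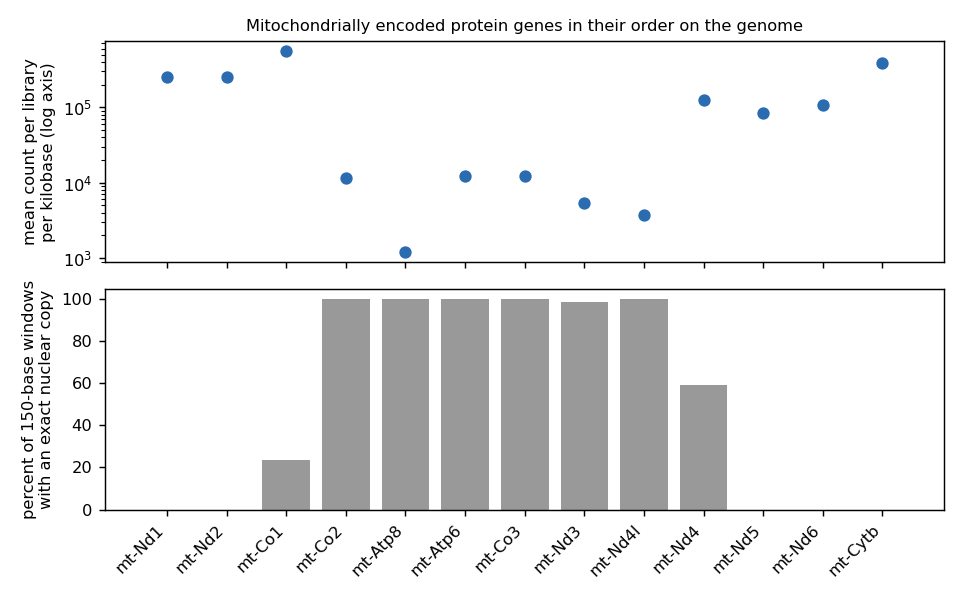
Mitochondrially encoded protein genes in their genome order. The upper panel shows the mean count per library and kilobase of gene (log axis, 6 libraries) and the lower panel the percent of 150-base windows with an exact match in the nuclear genome. The genes whose windows reach 98.5% or more have at most 12146 counts per kilobase.

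The first question was whether subunit RNAs differed between esculetin and vehicle. Of the 111 members, 103 passed the filter on low counts. None of them combined an unadjusted p under 0.05 with a fold change over 1.5, the study's thresholds, which 2.83% of all 14433 genes tested did. An unadjusted p under 0.05 alone was reached by 44 members in the direction of higher levels with esculetin, against 6.46% of all genes, and by 1 member, mt-Nd5, in the direction of lower levels, against 5.24%. All 44 were nuclear encoded subunits, 54.3% of the 81 tested. After Benjamini-Hochberg adjustment over all genes no member passed 0.05 in edgeR's test (lowest adjusted p 0.0685, Ndufa5), as 10 genes or 0.0693% of all did, while in DESeq2 193 of all genes passed, 3 of them members, Ndufa4, Ndufa5 and Ndufb9. P-values measure the spread between pools of mice.

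The nuclear encoded subunits shared a small difference in one direction. The fitted log2 fold change was above 0 in 79 of 81, against 48.5% of all genes tested, and its median was 0.19, a 1.14-fold difference, against -0.01 for all genes. With a correction for coding length and GC content, described further on, 72 were above 0, the median was 0.09 and 15 in place of 44 passed an unadjusted p of 0.05. Without it the cytosolic ribosomal proteins, which have no role in respiration, had a median of 0.18, and 38 of 78 passed. The esculetin libraries lay wholly above the vehicle libraries in 56 of the 81, where 9.2% of all genes did so. Ndufb3 was the single nuclear subunit whose esculetin libraries lay wholly below, as 8.24% of all genes did. The members share libraries and scaling, so these counts describe the list and are not independent observations.

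**Figure D2:**
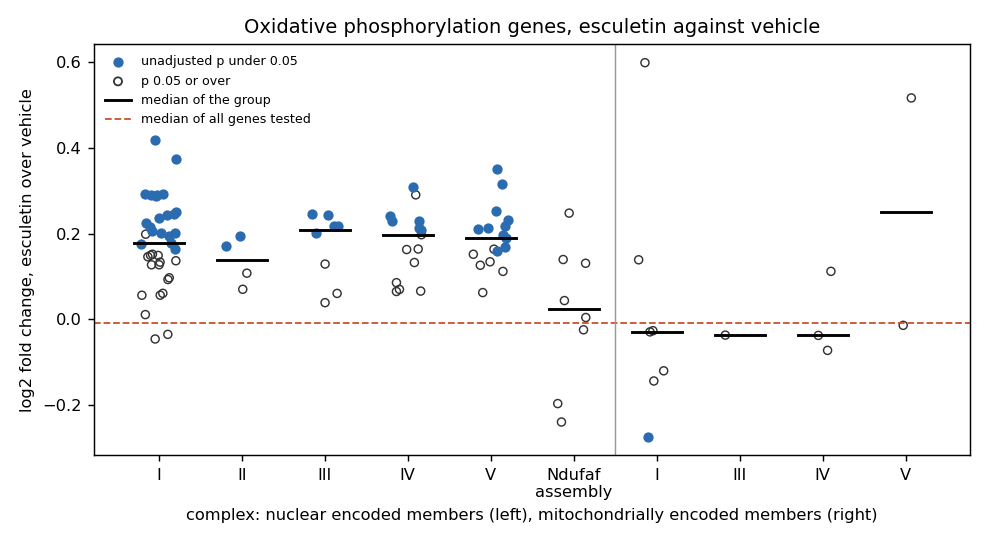
Fitted log2 fold change (esculetin over vehicle) of each tested member by complex, nuclear encoded on the left and mitochondrially encoded on the right (Atp5if1 is not drawn). Filled points have an unadjusted p under 0.05, black bars are group medians and the dashed line is the median of all genes. Medians of the nuclear subunits of the 5 complexes lie between 0.14 and 0.21, and that of the Ndufaf genes at 0.02.

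Complex I had the members with the smallest p-values. The fold change was above 0 in 35 of its 37 tested nuclear subunits and 20 of them reached an unadjusted p under 0.05, with a median log2 fold change of 0.18. Ndufa5, an accessory subunit of the matrix arm, measured 48.4, 47.7 and 47.7 CPM in the vehicle libraries and 66.7, 62.8 and 62.9 CPM in the esculetin libraries. The groups were well apart, with a log2 fold change of 0.42 (SE 0.07, adjusted p = 0.0685, edgeR's quasi-likelihood test). Ndufb9, an accessory subunit of the membrane arm, measured 41.5, 40.3 and 42.4 CPM against 54.7, 54.3 and 52.0 CPM. Its log2 fold change was 0.37 (SE 0.07, adjusted p = 0.0907 in the same test), again with no overlap.

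Several other accessory subunits of complex I followed. Ndufb7 measured 43.9, 43.6 and 44.8 CPM in vehicle and 54.3, 53.4 and 54.0 CPM in esculetin libraries. The replicates of either group lay close together, and the log2 fold change was 0.29 (adjusted p = 0.148). Ndufb11, which is X-linked, measured 73.7, 73.3 and 74.4 CPM against 83.5, 91.6 and 95.3 CPM. Ndufs6, a zinc-binding subunit, measured 56.6, 61.4 and 58.1 CPM against 77.6, 71.2 and 67.0 CPM. Both had a log2 fold change of 0.29 and groups that did not overlap (adjusted p = 0.171 and adjusted p = 0.188). Ndufc2, Ndufa2, Ndufs5, Ndufb5, Ndufa6, Ndufc1, Ndufa13, Ndufa10 and Ndufa7 also reached an unadjusted p under 0.05 in edgeR, with log2 fold changes from 0.16 to 0.29 and groups apart. Ndufa12 and Ndufa3 reached it with groups that overlapped.

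The 7 nuclear core subunits, which carry the flavin and iron-sulfur centres or build their surroundings, divided among themselves. Ndufv2, Ndufs3, Ndufs7 and Ndufs8 reached an unadjusted p under 0.05 in edgeR, with log2 fold changes of 0.25, 0.22, 0.29 and 0.19. Ndufv2 measured 98.9, 98.0 and 108.6 CPM in vehicle and 119.5, 119.3 and 123.5 CPM in esculetin libraries. Ndufv1, the NADH-binding subunit, measured 131.6, 136.9 and 127.0 CPM against 133.0, 142.0 and 137.4 CPM, and Ndufs1 measured 120.7, 123.3 and 128.1 CPM against 122.5, 128.1 and 136.2 CPM. In both the groups overlapped, at 0.06 (SE 0.07) on the log2 scale. The 30 accessory subunits had a median of 0.18 and the core subunits of 0.19. Their median coding lengths were 423 and 1062 bases. With the length and GC correction the medians were 0.09 and 0.15, and 6 of the 30 and 4 of the 7 passed an unadjusted p of 0.05. Ndufb3, at 72.0, 71.9 and 71.3 CPM against 66.1, 71.2 and 71.2 CPM, had the lowest log2 fold change of the nuclear subunits (-0.05, SE 0.07, adjusted p = 0.853).

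Complex II, the succinate dehydrogenase of the tricarboxylic acid cycle, has 4 subunits, and all had fold changes above 0. Sdhb, the iron-sulfur subunit, measured 145.2, 148.4 and 152.3 CPM in vehicle and 167.1, 175.3 and 168.2 CPM in esculetin libraries (log2 fold change 0.20, SE 0.07, adjusted p = 0.298). Sdhc, a membrane anchor, measured 170.9, 159.6 and 154.7 CPM against 181.7, 186.2 and 178.1 CPM (0.17, SE 0.07, adjusted p = 0.395). Neither gene had overlapping groups. Sdhd, the other anchor, was also apart, at 181.4 to 193.3 CPM against 198.1 to 203.9 CPM, without passing 0.05 (0.11, adjusted p = 0.6). Sdha, the flavoprotein and the member of the complex with the most counts, overlapped between groups, at 541.2, 508.1 and 503.6 CPM against 518.9, 553.1 and 557.8 CPM (0.07, adjusted p = 0.772). With the length and GC correction Sdhb alone of the 4 passed an unadjusted p of 0.05.

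In complex III 5 of 8 nuclear subunits passed an unadjusted p of 0.05, all of them small proteins. Uqcrq measured 167.4, 175.6 and 177.9 CPM in vehicle and 202.6, 209.5 and 205.4 CPM in esculetin libraries, with groups apart and a log2 fold change of 0.25 (SE 0.07, adjusted p = 0.203). Uqcr11, Uqcrh, Uqcrb and Uqcr10 were apart as well, with 0.20 to 0.24 and an unadjusted p under 0.05 each. Uqcrfs1, the Rieske iron-sulfur protein, was apart but missed 0.05 (0.13, adjusted p = 0.523). Uqcrc1 measured 175.6, 183.3 and 174.5 CPM against 184.0, 200.1 and 172.1 CPM, and Uqcrc2 measured 204.6, 188.9 and 206.0 CPM against 195.7, 206.5 and 213.5 CPM. These core proteins overlapped between groups at 0.06 and 0.04 on the log2 scale. With the length and GC correction none of the 8 passed 0.05, and their median log2 fold change was 0.08 in place of 0.21.

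Complex IV had 15 nuclear members tested, all with a fold change above 0, and 6 of them passed an unadjusted p of 0.05. Ndufa4, named after complex I but a subunit of complex IV, measured 236.0, 246.7 and 251.3 CPM in vehicle and 291.3, 306.9 and 310.8 CPM in esculetin libraries. The groups were apart, with a log2 fold change of 0.31 (SE 0.07, adjusted p = 0.126). Cox6c, Cox7a2, Cox4i1 and Cox6a1 were apart with 0.21 to 0.23, and Cox8a reached 0.24 with groups that overlapped. Cox7c and Cox6b1, both among the highest complex IV genes per kilobase of coding sequence, measured 212.6, 196.9 and 226.4 CPM against 206.8, 218.7 and 241.8 CPM, and 221.7, 194.8 and 213.6 CPM against 217.0, 224.2 and 217.7 CPM. Both overlapped, at 0.07 on the log2 scale. Cox7b was apart without passing 0.05 (0.16, adjusted p = 0.471). With the length and GC correction 11 of the 15 were above 0, 1 passed 0.05 and the median was 0.09 in place of 0.20, while Cox6b1, Cox7c, Cox7a1 and Cox5b-ps turned to values below 0.

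Several complex IV subunits have paralogs used in other tissues, and the liver form held nearly all counts. In vehicle libraries Cox7a2 averaged 403 CPM per kilobase of coding sequence and Cox7a1, the form of heart and skeletal muscle, 2.91. Cox4i1 averaged 489 CPM per kilobase on the same scale and Cox4i2 0.0468. Ndufa4 stood at 735 and Ndufa4l2 at 4.62 CPM per kilobase. Cox4i2, Cox6a2, Cox6b2 and Cox8b had too few counts to be tested, and Cox7b2 and Cox8c, like Ndufb11b of complex I and a second gene entry for Atp5po, were at 0 in every library. A count of 0 allows up to 3 counts, or 0.0865 to 0.109 CPM per library, by counting error only. The tested minor forms Cox7a1 and Ndufa4l2 overlapped between groups, as did Cox7a2l and the copy Cox5b-ps, whose reads the counting may share with Cox5b.

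Complex V was the complex with the largest share of genes apart: the esculetin libraries lay above the vehicle libraries in 16 of its 17 tested nuclear subunits, and 11 reached an unadjusted p under 0.05. Atp5f1e, the smallest subunit of the catalytic F1 part, measured 88.3, 97.3 and 98.7 CPM in vehicle and 119.7, 126.8 and 107.3 CPM in esculetin libraries (log2 fold change 0.32, SE 0.08, adjusted p = 0.179). Atp5po, a subunit of the peripheral stalk, measured 15.4, 16.1 and 16.8 CPM against 22.8, 19.6 and 19.2 CPM (0.35, SE 0.11, adjusted p = 0.22). Atp5f1d of the F1 part measured 114.4, 125.9 and 118.1 CPM against 139.1, 147.5 and 140.6 CPM (0.25, adjusted p = 0.207). The groups of these 3 genes did not overlap. With the length and GC correction 3 of the 17 passed an unadjusted p of 0.05, Atp5f1e not among them. The median log2 fold change was then 0.11 in place of 0.19.

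Without the length and GC correction the other parts of the ATP synthase gave similar sizes. All 4 peripheral stalk genes, Atp5po, Atp5pb, Atp5pd and Atp5pf, passed an unadjusted p of 0.05 (median log2 fold change 0.19), with Atp5pb at 343.0, 320.7 and 352.0 CPM against 383.0, 386.2 and 389.1 CPM. The ring subunit is coded by 3 genes for nearly the same mature protein. Atp5mc1 and Atp5mc2 passed 0.05, with 0.23 and 0.21, and Atp5mc3, which held the most counts of them, did not (0.13, adjusted p = 0.501). Of the other membrane subunits Atp5me, Atp5mf and Atp5mk passed. With the length and GC correction 2 peripheral stalk genes, 0 ring genes and 0 other membrane subunits passed. Their median log2 fold changes were then 0.14, 0.12 and 0.05, in place of 0.19, 0.21 and 0.16. The catalytic subunit pair Atp5f1a and Atp5f1b had the highest CPM of all nuclear members and small differences: Atp5f1a measured 892.1, 902.3 and 931.7 CPM against 977.5, 1001 and 967.1 CPM, and Atp5f1b 948.5, 909.7 and 961.4 CPM against 977.4, 1011 and 955.2 CPM. Atp5f1a was apart (0.11, adjusted p = 0.594) and Atp5f1b overlapped (0.06, adjusted p = 0.797).

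The members that are not subunits were read apart. None of the 8 Ndufaf assembly factors reached an unadjusted p under 0.05 or had groups apart, 5 of them had fold changes above 0 and their median log2 fold change was 0.02. Their values ran from -0.24 for Ndufaf7 to 0.25 for Ndufaf8. Atp5if1 stood at 3.92, 3.31 and 4.49 CPM in vehicle and 3.92, 4.55 and 4.78 CPM in esculetin libraries, with overlap (0.18, SE 0.19, adjusted p = 0.763).

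**Figure D3:**
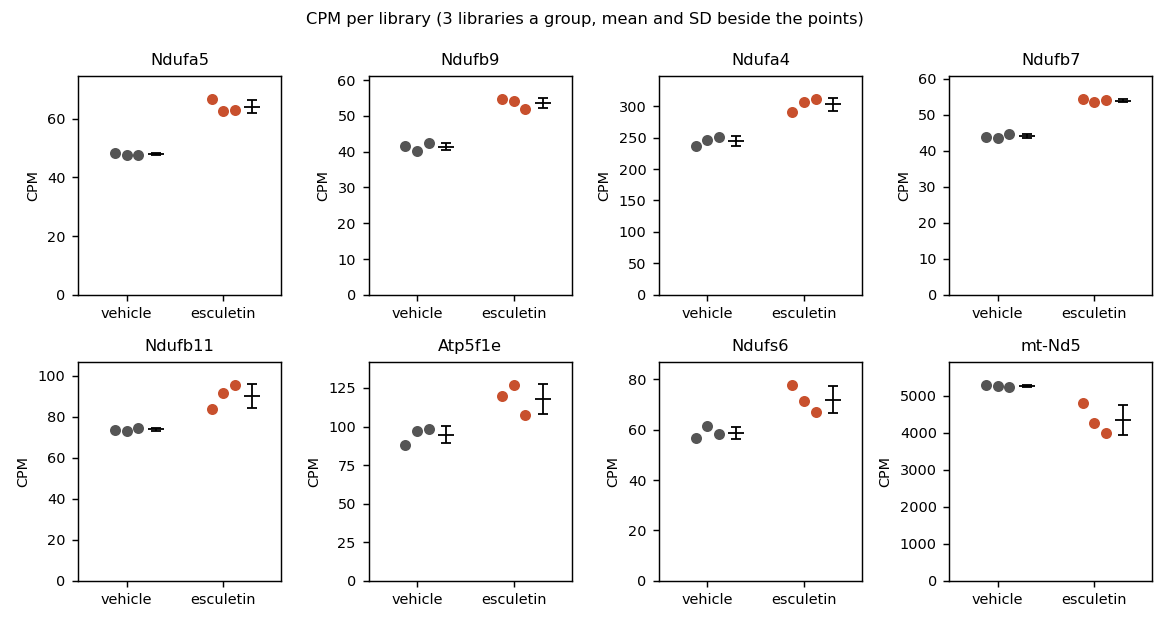
CPM of the 7 nuclear members with the smallest p-values and of mt-Nd5 in separate panels (axes start at 0), 3 vehicle and 3 esculetin libraries each, with the mean and SD beside the points. The 7 nuclear genes are higher in every esculetin library than in any vehicle library, and mt-Nd5 is lower.

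Mitochondrially encoded members gave other values. The 7 genes not wholly inside the chromosome 1 copy all had fold changes below 0, with a median of -0.07 on the log2 scale. With the correction for coding length and GC content that median was -0.02 and 1 of the 7 lay above 0. Over all 13 the median was -0.03, and over the 6 uncertain genes 0.13. mt-Nd5, a proton-pumping subunit of complex I, measured 5278, 5253 and 5227 CPM in vehicle and 4790, 4253 and 3985 CPM in esculetin libraries. The vehicle libraries were tight, all esculetin libraries were lower, and the log2 fold change was -0.27 (SE 0.08, adjusted p = 0.23). mt-Nd2 measured 9144, 8328 and 8816 CPM against 8032, 8088 and 8057 CPM, with groups apart but no p under 0.05 (-0.12, SE 0.07, adjusted p = 0.565).

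The remaining mitochondrial genes not wholly inside the copy overlapped between groups. mt-Co1, the catalytic subunit of complex IV and the member with the most counts, measured 27351, 27709 and 27676 CPM against 27390, 26088 and 25176 CPM (-0.07, adjusted p = 0.745). mt-Cytb of complex III measured 14570, 13786 and 13859 CPM against 13979, 14162 and 12995 CPM (-0.04, adjusted p = 0.892). mt-Nd1, mt-Nd4 and mt-Nd6 had -0.03, -0.03 and -0.14. Reads of mt-Nd6 and of the end of mt-Nd5 cannot be told apart where the genes overlap unless strand was used in counting, which is not given in the sources used here.

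The 6 uncertain genes had standard errors of 0.09 to 0.42 on the log2 scale, against 0.07 to 0.10 for the other 7. mt-Nd3 measured 49.4, 46.3 and 45.9 CPM in vehicle and 117.1, 50.6 and 46.9 CPM in esculetin libraries, with 1 esculetin library far above the other 5 libraries (log2 fold change 0.60, SE 0.42, adjusted p = 0.663). Without esculetin replicate 1 it was 0.05. mt-Atp6 measured 165.7, 186.8 and 287.9 CPM against 348.9, 283.9 and 283.5 CPM, with overlap (0.52, SE 0.23, adjusted p = 0.458). It was the only member past both study thresholds in any fit, namely without vehicle replicate 3, where its log2 fold change was 0.80 and its adjusted p also passed 0.05. mt-Co2, mt-Co3, mt-Atp8 and mt-Nd4l overlapped as well, with -0.04, 0.11, -0.01 and 0.14.

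Within each library the 2 genomes can be set against each other without scaling between libraries. The 13 mitochondrial genes took 7.41%, 7.21% and 6.98% of counts in vehicle and 6.91%, 6.77% and 6.51% in esculetin libraries. The groups did not overlap, and the exact two-sided permutation test gave p = 0.1, the smallest that 3 against 3 libraries allow. The nuclear members took 1.11%, 1.09% and 1.08% against 1.18%, 1.21% and 1.20% of counts. The log2 ratio of mitochondrial to nuclear member counts was 2.74, 2.72 and 2.69 in vehicle and 2.55, 2.48 and 2.43 in esculetin libraries. Every esculetin library was below every vehicle library, by 0.23 between the means, and by 0.23 with the 7 mitochondrial genes not wholly inside the chromosome 1 copy alone. Taken as a mean of log2 levels, in which all genes weigh alike, the difference was -0.13 and the groups overlapped. These ratios were not corrected for the length trend described below. The median coding length was 439.5 bases for the nuclear members and 1144 for the 7 mitochondrial genes. With the length and GC correction their median log2 fold changes were 0.09 and -0.02.

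**Figure D4:**
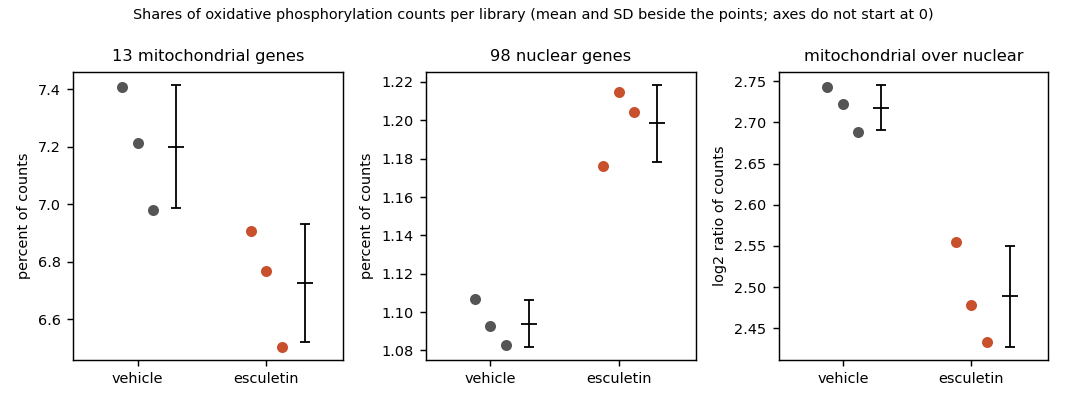
Percent of all counts from the 13 mitochondrial genes, from the 98 nuclear genes, and the log2 ratio of both sums in each library, with the mean and SD beside the points (axes do not start at 0). The mitochondrial share is lower and the nuclear share higher in every esculetin library than in any vehicle library.

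The sums were also taken by complex. The nuclear subunits of complex I summed to 2468, 2502 and 2494 CPM in vehicle and 2814, 2825 and 2767 CPM in esculetin libraries, while its mitochondrial subunits summed to 30039, 28340 and 28827 CPM and 28338, 27029 and 25779 CPM. The nuclear sums were all higher and the mitochondrial sums all lower with esculetin, the latter narrowly, at 28340 against 28338 CPM in the nearest pair of libraries. Complex IV summed to 1835, 1834 and 1945 CPM against 2084, 2150 and 2163 CPM for nuclear genes, with no overlap. Its mitochondrial genes summed to 27908, 28283 and 28174 CPM against 27953, 26644 and 25734 CPM, with overlap. The nuclear sums of the other complexes were also apart, at 1051, 997.5 and 997.9 CPM against 1066, 1118 and 1108 CPM for complex II, 1278, 1251 and 1301 CPM against 1414, 1445 and 1418 CPM for complex III, and 4061, 3940 and 4129 CPM against 4461, 4520 and 4380 CPM for complex V. The mitochondrial genes of complex V, both among the 6 uncertain genes, summed to 173, 196 and 294 CPM against 357, 291 and 291 CPM, with a higher mean in esculetin libraries but overlapping groups. Mitochondrial complex III is mt-Cytb alone, which overlapped as given above. Mitochondrial rRNA, which varied between replicates, took 0.204%, 0.190% and 0.322% against 0.236%, 0.483% and 0.353% of counts.

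Short genes in general had higher medians than long ones. Most nuclear subunits have short coding sequences (median 432 bases, against 1395 for all protein-coding genes tested). Other protein-coding genes with up to 300 coding bases had a median log2 fold change of 0.13 (184 genes), and those over 2000 bases one of -0.07 (3710 genes). In each class of length with 9 or more members the nuclear members had a higher median than the other genes, for example 0.22 against 0.13 up to 300 bases, 0.20 against 0.11 from 300 to 450 bases and 0.20 against 0.05 from 600 to 1000 bases. Across genes, length and log2 fold change had a Spearman correlation of -0.35 over the 90 nuclear members and of -0.25 over 12487 other protein-coding genes, all from the same 6 libraries.

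A correction for coding length and GC content, chosen after seeing the data, reduced the pattern. It left 15 nuclear subunits higher and mt-Nd5 lower at an unadjusted p under 0.05 in edgeR, against 5.85% and 4.27% of all genes, in place of 44 and 1. The median log2 fold change of the nuclear members was 0.09 with it and 0.17 without, and 77 of 90 nuclear members had a fold change above 0, against 51.2% of all genes. Of the nuclear subunits past 0.05 with the correction complex I held 10, complex II 1, complex III 0, complex IV 1 and complex V 3. Whether length stands for a property of the libraries or of the liver was not tested.

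**Figure D5:**
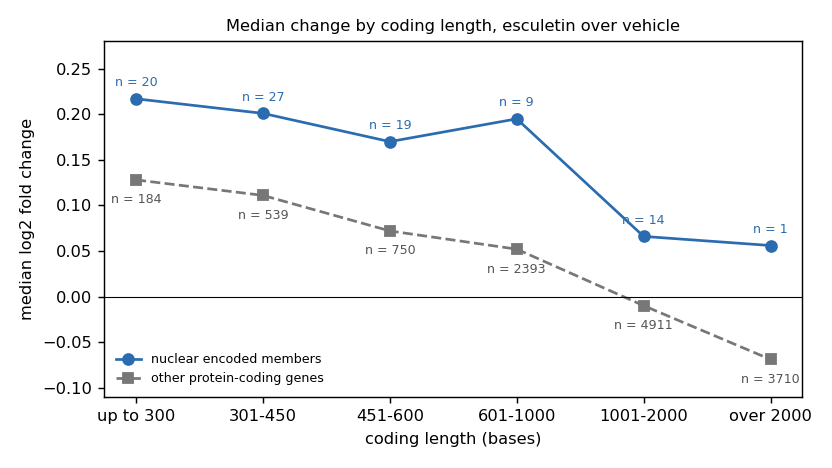
Median log2 fold change (esculetin over vehicle) by coding length in bases for nuclear members (circles) and other protein-coding genes (squares), with the number of genes at each point. The median of the other genes is lower in each longer class, and the members lie above the other genes in each class, the longest holding 1 member.

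Many of the single results depended on which libraries and settings were used. Of the 45 members past an unadjusted p of 0.05, 18 stayed past it whichever library was left out, and 28 members passed without vehicle replicate 2 and 28 without esculetin replicate 2. Ndufa4, Ndufa5, Ndufb7, Ndufb9, Ndufs3, Ndufs7, Ndufv2 and Atp5po passed in all 17 other fits, the length correction included. mt-Nd5 passed in each fit without 1 library and with the length correction (log2 fold change -0.21), and missed it with that correction and the replicate block together.

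The promoters of the nuclear subunits, which the rule did not use, were searched for the motifs of factors known to act on respiratory genes. A RefSeq promoter window of GRCm38.p6 was held for 66 of the 81 tested subunits, and all windows of a gene were searched over their full length. The stretches of Ndufa5 given below are the first 250 bases of its windows. The NRF1 motif, read as GCGC, any pair of bases and GCGC and searched on both strands like the others, occurred in 28.8% of these genes and in 14.6% of all genes tested with a window. The letters AAGATGGCG of YY1 occurred in 10.6% against 3.47%, CCGGAAG of the ETS family, which includes GABP, in 24.2% against 19.4%, and TCAAGGTCA of the ERR receptors in 3.03% against 0.312%. Members with the NRF1 letters had a median log2 fold change of 0.20 and those without 0.18. For the ETS letters the medians were 0.21 and 0.17, for the YY1 letters 0.21 and 0.19 and for the ERR letters 0.12 and 0.20, the last resting on 2 members with a match. For all genes with and without the NRF1 letters the medians were -0.01 and -0.01. A match is not evidence of binding. The window of Ndufa5, the member with the smallest p, is shown because it holds the NRF1 letters close to a start, 1 of the 2 that RefSeq lists. The window of the other start (chr6:24527527-24527776) holds the same match further upstream of that start. The window shown is the first of these in the direction of transcription (chr6:24527691-24527940, minus strand, GRCm38.p6, capitals for the letters matched).
Ndufa5: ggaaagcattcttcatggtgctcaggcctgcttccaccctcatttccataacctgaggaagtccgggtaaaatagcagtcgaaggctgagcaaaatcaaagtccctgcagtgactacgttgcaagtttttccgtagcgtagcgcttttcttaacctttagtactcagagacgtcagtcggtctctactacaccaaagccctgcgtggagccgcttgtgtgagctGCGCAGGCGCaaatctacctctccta

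Other genes of the mitochondrial programme were read from lists, against the 6.46% of all genes with an unadjusted p under 0.05 and higher levels and the 5.24% with lower levels. Assembly factors outside the rule had 5 of 42 genes with an unadjusted p under 0.05 and higher levels, namely Pet100, Coa6, Cmc1 and Cmc2 of complex IV assembly and Uqcc2 of complex III assembly (log2 fold changes from 0.29 to 0.41), or 11.9%, and a median of 0.04. With the length correction 2 passed upwards and 2, Taco1 and Coa5, downwards, and the median was -0.01. Cytochrome c, coenzyme Q and carrier genes had 6 of 26 upwards, namely Etfb, Sqor, Coq7, Ucp2, Cyc1 and Etfa, with a median of 0.03, and 5 upwards and 1, Cycs, downwards with the length correction. The log2 fold change was 0.49 for Etfb and 0.17 for Etfa, which form the electron transfer flavoprotein, 0.43 for Coq7 of coenzyme Q synthesis and 0.26 for Ucp2, a carrier whose groups overlapped. Sqor, which passes electrons from sulfide to coenzyme Q, measured 147.3, 139.3 and 140.1 CPM in vehicle and 199.9, 176.4 and 206.1 CPM in esculetin libraries, with groups apart (0.45, SE 0.08, adjusted p = 0.0755). Cyc1, the cytochrome of complex III, had 0.19 (adjusted p = 0.352), whereas Cycs, cytochrome c itself, was lower in every esculetin library than in any vehicle library, at 169.9, 160.9 and 166.3 CPM against 157.7, 158.3 and 158.2 CPM, without passing 0.05 (-0.07, adjusted p = 0.757). With the length correction it had -0.17.

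The genes that express mitochondrial DNA were counted in the same way. Of 35 genes for its replication, transcription and RNA handling, Hsd17b10, a subunit of mitochondrial RNase P, alone passed an unadjusted p of 0.05 (0.29, adjusted p = 0.148), which is 2.86% of the list, and 2 passed upwards with the length correction. Tfam, which packs mitochondrial DNA and starts its transcription, measured 52.5, 45.3 and 51.0 CPM against 44.5, 49.0 and 50.9 CPM, with overlap. Among 18 regulators of mitochondrial biogenesis none passed upwards and Gabpb1, a subunit of GABP, passed downwards (-0.35, adjusted p = 0.36). The esculetin libraries lay wholly below the vehicle libraries for 3 of the 18 and wholly above for 1, against 8.24% and 9.2% of all genes. With the length correction 1 passed in each direction, upwards Ppargc1b, the coactivator PGC-1beta (0.49). Ppargc1a, the coactivator PGC-1alpha, measured 11.1, 8.93 and 14.0 CPM against 10.9, 13.5 and 12.6 CPM, with overlap.

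The mitochondrial ribosomal proteins had 13 of 77 genes past an unadjusted p of 0.05 with higher levels, from Mrpl51 at 0.20 to Mrps16 at 0.49 on the log2 scale, and a median log2 fold change of 0.10. The cytosolic ribosomal proteins, which have no role in respiration and were added after seeing the data, had 38 of 78 and a median of 0.18. With the length correction 5 mitochondrial ribosomal protein genes passed upwards and 1 downwards, and 18 cytosolic ones upwards and 0 downwards. The tricarboxylic acid cycle and pyruvate dehydrogenase list had 5 of 24, namely Mpc1, Pcx, Mpc2, Idh2 and Suclg2, with a median of 0.08, and the mitochondrial chaperones and proteases 5 of 17, namely Clpp, Phb2, Phb1, Lonp1 and Hspe1, with a median of 0.10. With the length correction 6 genes of either list passed upwards and 0 downwards.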

How the data were processed

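Liver RNA of 6 libraries (3 vehicle, 3 esculetin, each of 2 mice) was sequenced. The authors deposited whole-number counts per gene, not normalized, and the table holds no fold changes or p-values. The submitters' processing notes name HISAT2 2.2.1, featureCounts and the builds GRCm39 and mm10; strandedness and the handling of multi-mapped reads are not given in the sources used here. Of nonzero counts from 1 to 6, 72.4% were even, as when both mates of a pair are counted, so counts are not independent molecules.

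Genes were filtered with filterByExpr, scaled with TMM and compared with edgeR 4.0.16 (quasi-likelihood, robust) in R 4.3.3, with Benjamini-Hochberg adjustment over 14433 genes. Calls needed both an unadjusted p under 0.05 and a fold change over 1.5. The biological coefficient of variation was 14.6%. The lowest chi-square per gene between replicates was 26.2, and none was counted as a copy. Alternatives were DESeq2 1.42.0, limma-voom (limma 3.58.1), other scaling and filters, each library left out, and the replicate block. Added after seeing the data were a fit without robust estimation, splines of 5 degrees of freedom for coding length and GC content (14389 genes), and the 7 mitochondrial genes not wholly inside the chromosome 1 copy.

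The 54749 identifiers held by GENCODE M39 were named from it. Coding lengths are those of the canonical transcripts. Nuclear copies of mitochondrial DNA were aligned with minimap2 to GRCm39. The edgeR step was tested on simulated data. Members and lists were chosen with earlier results of these data known. Named members are all mitochondrial genes, members past an unadjusted p of 0.05, the Sdh genes, the extremes of each complex in log2 fold change and the highest in level per kilobase, paralogous forms and members left out by the filter, and from other lists the genes past that p, except that ribosomal protein genes and cell type markers are mostly given by counts and sums. Ndufv1, Ndufs1, Ndufaf8, Uqcrfs1, Uqcrc1, Tfam, Ppargc1a, Cycs, Atp5f1a, Taco1, Coa5, Ppargc1b, Csf3r, Csf1r, Timd4 and the groups by role were named after their values were seen.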

Additional observations from a re-analysis of the deposited data

How the results depend on the processing

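The nuclear median kept its direction in all settings, and the mitochondrial median of -0.03 did so except in fits without 1 library, which gave -0.051 to 0.002. The nuclear median of 0.172 was 0.150 with total counts, 0.090 with the length and GC correction and 0.090 with that correction and the replicate block, and 0.162 to 0.196 without 1 library. Members with an unadjusted p under 0.05 numbered 45, and 16 with the correction, 9 with correction and block, 35 with total counts and 28 to 39 without 1 library. Members past both study thresholds numbered 0, and 0 to 1 without 1 library. All genes called numbered 408, 713 without a filter and 373 to 539 without 1 library. The difference in the log2 ratio was -0.229, -0.127 as a mean of log2 levels and -0.262 to -0.202 without 1 library, and that in the mitochondrial percent of counts -0.473 and -0.584 to -0.362. Adjusted p-values under 0.05 were reached by 7 members without a filter, where 492 genes passed.

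The replicate numbers share no mice, and samples of the same number did not deviate together (correlations of deviations -0.0689, -0.0108 and 0.00274). With the replicate block 370 genes were called, 38 members had an unadjusted p under 0.05, the nuclear and mitochondrial medians were 0.173 and -0.028, and the percent and ratio differences were -0.473 and -0.229.

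Among the 103 tested members the sign turned in at least 1 fit without 1 library for 12, in an added fit for 10 and in another planned fit for 2, Ndufb2 and Ndufaf4, and the cause was not tested. With the correction, and with correction and block, Cox6b1 had -0.079 and -0.077, Cox7a1 -0.086 and -0.042, Cox7c -0.088 and -0.090, and mt-Nd4 0.016 and 0.015, and mt-Nd4l had -0.016 with both. Ndufa1, Ndufb1, Ndufb2, Ndufaf4 and Cox5b-ps also turned with the correction, to -0.030, -0.051, -0.109, -0.049 and -0.018. Fits without 1 library gave Cox7a1 -0.225 to 0.264, mt-Atp8 -0.115 to 0.134, mt-Co2 -0.19 to 0.174, mt-Cytb -0.061 to 0.002, mt-Nd1 -0.07 to 0.012, mt-Nd4 -0.052 to 0.016 and mt-Nd4l -0.204 to 0.354, and turned Ndufb2, Ndufb6, Ndufaf2, Ndufaf4 and Cox5b-ps as well. With 3 libraries per group, SEs of about 0.07 on the log2 scale were as large as many of the differences.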
